A study of Caenorhabditis elegans with 6 samples.

Results

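The Hedgehog-related and patched-related genes of Caenorhabditis elegans were followed in embryos with and without a microRNA cluster. The set comprised every gene whose symbol in the deposited table begins with wrt-, grd-, grl-, hog-, ptr- or ptc- and a number, together with qua-1, and each gene was represented by its brightest probe set. It held 80 genes of 17328 with a probe set of their own: 55 Hedgehog-related genes (29 grl, 14 grd, 10 wrt, hog-1 and qua-1) and 25 genes of the receptor type (23 ptr, ptc-1 and ptc-3). All 80 symbols were found in the RefSeq gene table of assembly WBcel235.

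Expression was measured on 6 Affymetrix arrays of RNA from whole mixed-stage embryos. There were 3 arrays of the mir-35-41(nDf50) mutant, strain VT2935 without the nEx1187 array, and 3 arrays of wild type, strain N2. Both groups grew at 20 °C on NGM with chicken egg yolk and spent the last 24 hours at 25 °C, and hypochlorite treatment of mixed cultures gave the embryos. nDf50 is a deletion of microRNA genes of the mir-35 family, which act in embryos. The description lines of the 6 samples also name stages of insect embryos (nuclear cycles and cellularisation) that split the mutant group, and these were not used, since title, source and stage labels all give mixed-stage worm embryos.

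The worm has no classical Hedgehog ligand of the fly and vertebrate type and no Smoothened. It carries instead large families of secreted proteins named warthog (wrt), groundhog (grd), ground-like (grl), hog-only (hog) and quahog (qua), some of which share the self-processing Hog domain of Hedgehog. Patched (ptc) and patched-related (ptr) proteins are multi-pass membrane proteins with a sterol-sensing domain, and many genes of both groups act in epidermis, glia and other cells that make cuticle or apical matrix, where several are needed for moulting.

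The arrays had similar scales, with medians of 118.98 to 126.96 in the mutant and 113.86 to 121.17 in wild type on the linear intensity scale. No probe set carried the symbol of a deleted microRNA (0 of 7 names were found on the arrays), so the deletion was not checked here. No label says that replicates were separate cultures, so p-values measure only the spread between these arrays, which may be technical. Probe sets for 5 yeast genes, which have no target in worms, gave group means of 3.73 to 5.34 in the mutant and 3.75 to 5.42 in wild type on the log2 scale. Markers of early embryos were present: none of 10 maternal and oocyte transcripts had means at or below the brightest of these controls (called control level here) in both groups. Of the yolk protein genes, vit-2 and vit-5 had such means. The yolk protein genes vit-1, vit-3, vit-4 and vit-6 lay above control level, with means of 5.73 to 6.73 in the mutant and 5.64 to 6.73 in wild type.

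Against that yardstick, 62 of the 80 genes had mean signals above the brightest yeast control in both groups, 3 in one group, and 15 in neither. The 15 at control level were grd-4, grd-7, grd-9, grd-16, grl-3, grl-8, grl-18, grl-19, grl-20, grl-23, grl-24, grl-28, ptr-9, ptr-13 and wrt-7. Signal at control level was thus found for 13 of 55 Hedgehog-related genes and 2 of 25 receptor-type genes (18.8% of the set, against 31.9% of all genes). grl-18, known as a marker of labial socket glia, was among the 15, at 4.79 ± 0.09 in the mutant and 4.85 ± 0.09 in wild type (log2, SD, n = 3 each).

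The main question was which of these genes differed between mutant and wild type embryos. The ground-like genes grl-21 and grl-4, the patched-related gene ptr-8 and the groundhog gene grd-3 rose in the mutant, by 9.80-fold, 6.14-fold, 7.34-fold and 2.08-fold. No member fell. These 4 genes made up 5.0% of the set, against a background of 3.03% of all genes called higher, and the 0 falls stood against a background of 0.646% called lower (limma, Benjamini-Hochberg adjusted p under 0.05 over all 17328 genes). In either direction the background was 3.68%. A share this near the background says little of the set as a whole, and what stood out were the sizes of single members: grl-21 was 12th, ptr-8 30th and grl-4 43rd among the 525 genes that rose, ordered by log2 difference.

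**Figure D1:**
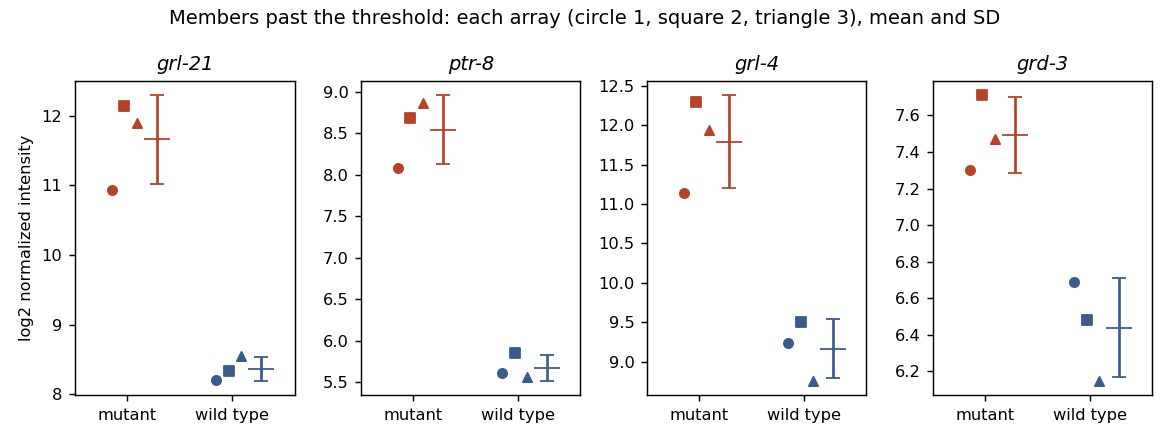
Log2 normalized intensity (vertical axis, a separate range per gene) of the 4 members past the threshold, with 3 mutant and 3 wild type arrays as points (circle, square and triangle for replicates 1, 2 and 3) and bars for mean and SD. Every mutant array lies above every wild type array, and mutant replicate 1 (circle) is the lowest mutant array in all 4 panels.

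Among the ground-like genes, whose proteins carry a domain related to that of the groundhog family, grl-21 had log2 intensities of 10.94, 12.14 and 11.90 in mutant replicates 1, 2 and 3, against 8.21, 8.34 and 8.55 in wild type. All mutant arrays were more than 2 log2 units above all wild type arrays, and mutant replicate 1 was the lowest of the 3. The log2 difference was 3.29 (SE 0.30, 95% interval 2.58 to 4.01, limma adjusted p = 0.00521). It stayed past the threshold in all 18 alternative settings, with differences of 3.05 to 3.66.

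The second ground-like gene that rose, grl-4, had 11.14, 12.29 and 11.94 in the mutant, against 9.24, 9.50 and 8.76 in wild type. Its groups did not overlap, and mutant replicate 1 was again the lowest mutant array. The log2 difference was 2.62 (SE 0.32, 95% interval 1.86 to 3.37, limma adjusted p = 0.0101). Without mutant replicate 3 the call was lost at adjusted p = 0.0654, with a difference of 2.55. By its name, the probe set of grl-4 is not specific to a single transcript, and related sequences may add to its signal. The brightest probe sets of 25 of the 80 members are of this kind, beside 4383 of all 17328 genes. Examples named below are those of grl-7, grd-16, wrt-2, wrt-5, wrt-8, wrt-10, qua-1, ptc-3, ptr-2 and ptr-4.

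The other 27 ground-like genes did not pass, and their differences ran from -0.63 to 0.55. The largest of them upward, grl-6, had 7.87, 8.47 and 8.18 in the mutant and 7.79, 7.49 and 7.61 in wild type, groups that did not overlap (difference 0.55, SE 0.16, limma adjusted p = 0.132). At the other end, grl-10 had 9.43, 9.98 and 9.71 in the mutant and 10.05, 10.30 and 10.65 in wild type, again without overlap (difference -0.63, SE 0.20, limma adjusted p = 0.142). The next in size, grl-11, spread over 6.55 to 7.31 in the mutant and 6.57 to 8.52 in wild type, and the 95% interval of its difference, -1.73 to 0.54, spans 0. Of ground-like genes with strong signal, grl-7 had 11.33, 11.88 and 11.67 in the mutant and 11.69, 11.83 and 11.71 in wild type, groups that overlapped (difference -0.12, 95% interval -0.46 to 0.23). grl-2, widely used as a marker of the excretory duct and pore cells, differed by -0.17 (95% interval -0.44 to 0.10).

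Among the groundhog genes, grd-3 had 7.30, 7.71 and 7.47 in the mutant, against 6.69, 6.48 and 6.15 in wild type. The groups did not overlap, with a gap between the lowest mutant and the highest wild type array that was small beside those of grl-21, grl-4 and ptr-8. The log2 difference was 1.06 (SE 0.17, 95% interval 0.66 to 1.45, limma adjusted p = 0.0237). The call was lost without mutant replicate 2 or 3 (adjusted p = 0.104 and 0.114) and without wild type replicate 2 or 3 (adjusted p = 0.0943 and 0.0635), with differences of 0.91 to 1.08 in these fits.

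The other 13 groundhog genes did not pass. The largest difference among them was that of grd-2, at 7.84, 8.89 and 8.58 in the mutant and 6.74, 7.90 and 8.06 in wild type. Both groups were lowest on replicate 1 and overlapped with each other (difference 0.87, SE 0.40, limma adjusted p = 0.299). The next largest, grd-16, had a difference of -0.51 (SE 0.14, limma adjusted p = 0.0988) with every mutant array below every wild type array, but both of its means, 4.39 in the mutant and 4.91 in wild type, lay at the level of the yeast controls. For grd-10, used as a marker of the seam cells of the epidermis, the values were 6.79, 7.95 and 7.75 in the mutant and 6.76, 7.20 and 7.27 in wild type (difference 0.42, 95% interval -0.31 to 1.16). grd-5 averaged 10.03 ± 0.47 in the mutant and 10.43 ± 0.56 in wild type (log2, SD, n = 3 each), a difference of -0.40 (95% interval -1.19 to 0.39). The groups of grd-10 and of grd-5 overlapped.

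No warthog gene passed, and 7 of the 10 had negative differences, with a median of -0.25 against -0.05 for all genes. Positive differences made up 30.0% of the family, near the 39.2% of all genes. Set against each gene's mean over the 6 arrays, the family's median was -0.43, 0.11 and 0.03 on mutant replicates 1, 2 and 3. wrt-6 had 9.75, 10.58 and 10.37 in the mutant and 9.65, 9.55 and 9.79 in wild type (difference 0.57, SE 0.21, limma adjusted p = 0.207). Only mutant replicate 1 lay among its wild type arrays. wrt-8 split both groups, at 7.38, 8.53 and 8.46 in the mutant and 7.18, 7.05 and 8.49 in wild type (difference 0.56, 95% interval -0.53 to 1.65). For wrt-5, which is needed in embryos for normal development, the mutant arrays were tight at 8.92, 8.98 and 8.97, below the 9.21, 9.23 and 9.94 of wild type (difference -0.50, SE 0.20, limma adjusted p = 0.227). wrt-2, a common marker of seam cells, had 11.67, 12.15 and 12.02 in the mutant and 12.15, 12.23 and 12.14 in wild type, with mutant replicate 1 alone standing clearly apart (difference -0.22, 95% interval -0.54 to 0.10). Neighbouring genes on chromosome II, wrt-1 and wrt-10, both had every mutant array below every wild type array, with differences of -0.40 (SE 0.16, limma adjusted p = 0.222) and -0.32 (SE 0.11, limma adjusted p = 0.16).

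The single genes of the hog and quahog types gave no call. hog-1, whose product carries the Hog domain alone, had 8.61, 9.29 and 9.17 in the mutant and 8.95, 9.49 and 9.89 in wild type (difference -0.42, 95% interval -1.07 to 0.23). qua-1, which is needed for moulting, had 7.94, 8.53 and 8.70 in the mutant and 7.68, 8.50 and 8.18 in wild type (difference 0.26, 95% interval -0.36 to 0.89). In both genes replicate 1 was the lowest array of each group, and the groups overlapped.

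**Figure D2:**
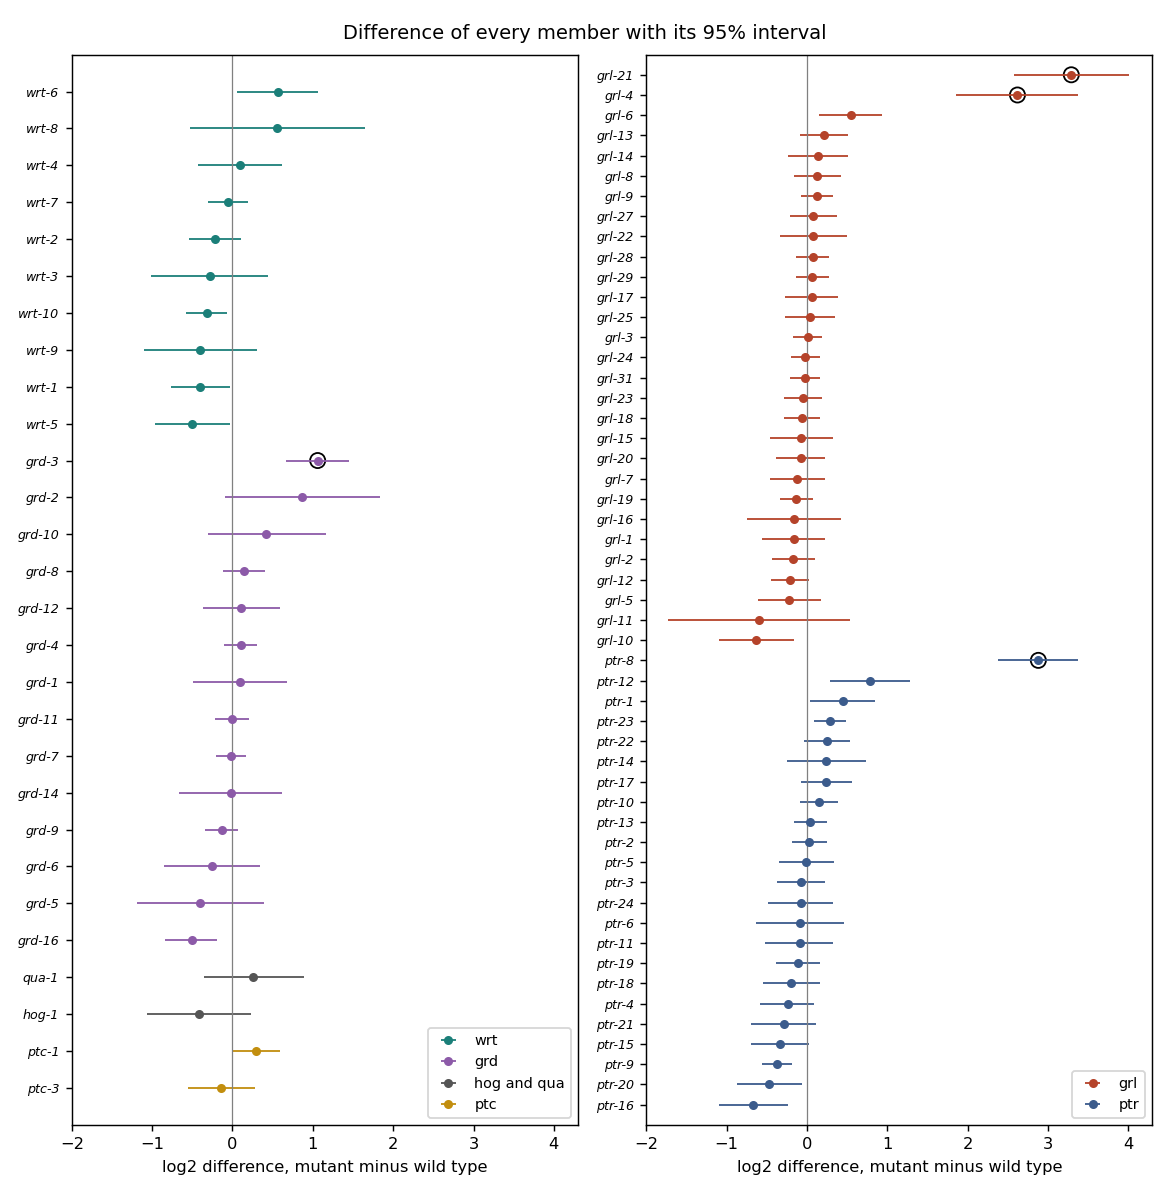
Log2 difference of mutant minus wild type (horizontal axis) for all 80 genes, ordered by size within each family and coloured by family, with 95% intervals from limma, and black rings around the 4 genes past the threshold. The rings of grl-21, ptr-8 and grl-4 lie above 2.5 and that of grd-3 at 1.06, while 66 of the 80 genes lie within 0.5 of 0. Of all 17328 genes measured, 15618 had differences within 0.5 of 0.

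On the receptor side, the patched-related gene ptr-8 had 8.08, 8.69 and 8.87 in the mutant, against 5.61, 5.85 and 5.56 in wild type. The wild type mean of 5.67 lay just above the brightest yeast control (5.42), near the bottom of the measurable range. The difference was 2.88 on the log2 scale (SE 0.21, 95% interval 2.38 to 3.37, limma adjusted p = 0.0033). The call held in all 18 alternative settings, with differences of 2.54 to 3.11. Like that of grl-4, its probe set is by name not specific to a single transcript.

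The other 22 patched-related genes had differences of -0.67 to 0.79, and none passed. ptr-12 had 6.66, 7.31 and 7.39 in the mutant and 6.14, 6.36 and 6.51 in wild type, without overlap (difference 0.79, SE 0.21, limma adjusted p = 0.0974). For ptr-16 the mutant arrays, 7.64, 8.21 and 8.07, all lay below those of wild type, 8.87, 8.46 and 8.58 (difference -0.67, SE 0.18, limma adjusted p = 0.0988). ptr-20 showed the same order, with 8.09, 8.68 and 8.58 in the mutant and 8.80, 8.88 and 9.07 in wild type (difference -0.47, SE 0.17, limma adjusted p = 0.199). The smallest adjusted p among genes that did not pass was that of ptr-9, at 0.0522 in the same limma fit, for a difference of -0.37 (SE 0.08) between means of 4.87 in the mutant and 5.24 in wild type. Both means of ptr-9 lay at control level.

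Several patched-related genes with described roles in worms varied little between the groups. ptr-4, needed for the apical matrix and for moulting, had 10.56, 10.89 and 11.05 in the mutant and 11.01, 11.20 and 11.02 in wild type (difference -0.24, 95% interval -0.58 to 0.09). ptr-2, an embryonic gene with a role in early development, had 9.72, 9.82 and 9.77 in the mutant and 9.74, 9.85 and 9.63 in wild type, and its 95% interval of -0.19 to 0.25 is among the narrower ones. ptr-10, a marker of glia, differed by 0.15 (95% interval -0.09 to 0.39).

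The patched genes themselves were close in both groups. ptc-1, known for its part in cytokinesis of the germ line, had 9.34, 9.72 and 9.60 in the mutant and 9.28, 9.37 and 9.13 in wild type. Its groups overlapped only through mutant replicate 1 and wild type replicate 2 (difference 0.29, SE 0.13, limma adjusted p = 0.261). ptc-3, needed in many tissues and able to transport cholesterol, had 10.56, 11.06 and 11.07 in the mutant and 11.08, 11.22 and 10.81 in wild type (difference -0.14, 95% interval -0.55 to 0.28). Of 12 members with several probe sets, 9 had differences of the same sign in all of them. The exceptions were grl-25, ptr-2 and ptr-11, all with differences near 0, whose probe sets lay 0.24, 0.23 and 0.10 apart. The 4 probe sets of ptr-23 gave 0.29, 0.20, 0.35 and 0.16.

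The members as a set had differences spread on both sides of 0. The median log2 difference was -0.02 over the 80 genes and -0.05 over all genes, with 36 positive and 44 negative differences. Groups did not overlap in 19 members, 8 with the mutant above and 11 with the mutant below, or 23.8% of the set, against a background of 24.4% of all genes. An unadjusted p under 0.05 was reached by 17 members, 9 upward and 8 downward, beside a background of 19.7%. Differences of at least 1 log2 unit were found in 4 members (5.0%, against a background of 2.67% of all genes), the same 4 that passed.

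Within the mutant group, the members had a wider spread between arrays than all genes did. On mutant replicate 1, 58 of the 80 genes (72.5%) had the lowest value of the 3 mutant arrays, against 42.0% of all genes. This held for 22 of the 25 receptor-type genes and 36 of the 55 Hedgehog-related genes. Wild type replicate 1 was the lowest wild type array in 39 members (48.8%), against 37.3% of all genes. Set against each gene's 6-array mean, the median member lay at -0.14, 0.09 and 0.05 on mutant replicates 1, 2 and 3, and at -0.02, 0.01 and 0.03 on wild type replicates 1, 2 and 3. For all genes these medians stayed between -0.03 and 0.02. Some lists described below were also low on mutant replicate 1. Their medians there were -0.31 for body wall muscle, -0.21 for epidermal, -0.20 for glial, -0.18 for moulting and matrix, and -0.16 for pharyngeal genes. On mutant replicates 2 and 3 the medians were 0.26 and 0.37 for body wall muscle and 0.76 and 0.80 for pharyngeal genes. For neuronal genes the median was 0.04 on mutant replicate 1, below the 0.19 and 0.25 of the other mutant arrays. Seam genes (0.05, 0.04 and -0.02, in replicate order) and germline genes (0.26, -0.3 and -0.33) did not have their lowest mutant median on that array. On mutant replicate 1 the median of the 10 warthog genes was -0.43. The median SD of a member over the 3 mutant arrays was 0.22, against 0.13 for all genes, and over the 3 wild type arrays 0.15, against 0.13. Dim genes vary little, and among genes above the yeast controls in a group these SDs were 0.27 for members and 0.17 for all genes in the mutant, and 0.18 for members and 0.17 for all genes in wild type.

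**Figure D3:**
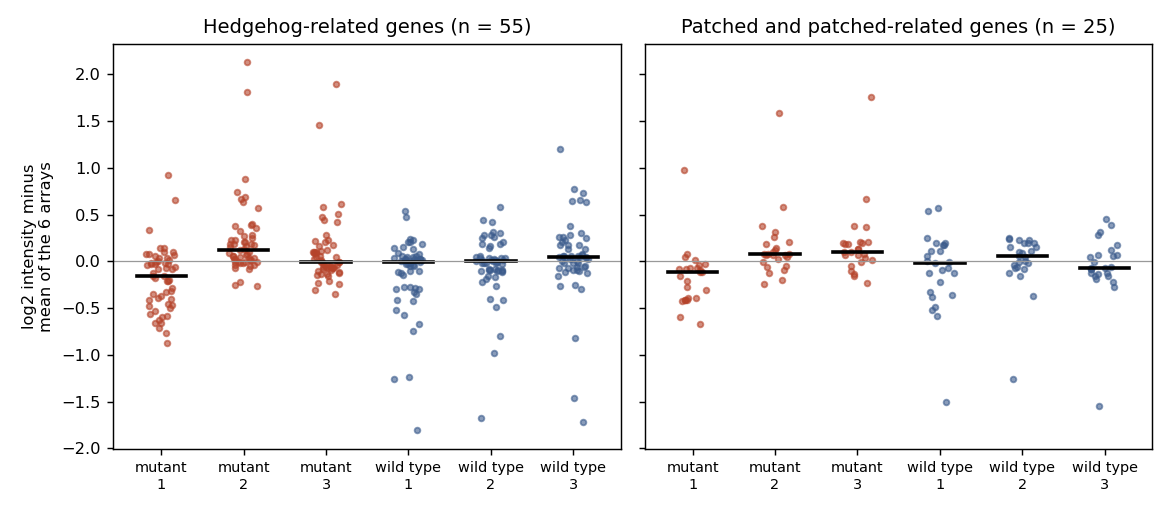
Log2 intensity of each gene relative to its mean over the 6 arrays (vertical axis), by array, for 55 Hedgehog-related genes (left) and 25 patched and patched-related genes (right), with black lines at the medians, mutant in red and wild type in blue. The points of mutant replicate 1 lie mostly below 0, with medians of -0.16 and -0.11, and the few points far from 0 are the genes past the threshold and other wide-spread genes.

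The number of members called depended on which arrays were used. Without mutant replicate 1, 8 members were higher, against a background of 7.17% of all genes, and 1 was lower, against a background of 4.17%. Without mutant replicate 3, 2 members were higher, grl-21 and ptr-8, against a background of 0.456%, and 0 were lower, against a background of 0.0289%. When both arrays numbered 1 were left out, 11 members (13.8%) were higher, against a background of 9.21%, and 4 (5.0%) were lower, against a background of 8.09%. The genes added upward were grd-2, grd-10, grl-6, ptr-1, ptr-12, ptr-23 and wrt-6, and those downward were grd-16, grl-10, ptr-9 and wrt-10. The differences of grl-6, ptr-12 and wrt-6 in that fit were 0.78, 0.92 and 0.81. With array weights, which let limma give less to arrays that vary more, 9 members were higher and 5 lower, beside backgrounds of 10.5% and 9.84%.

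**Figure D4:**
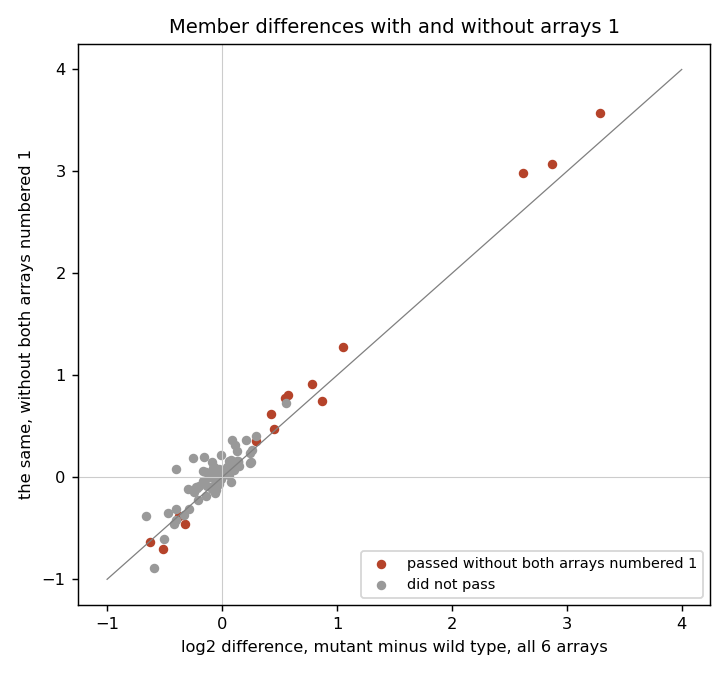
Log2 difference of mutant minus wild type for the 80 genes over all 6 arrays (horizontal axis) and without both arrays numbered 1 (vertical axis), with genes past the threshold in the smaller fit in red and the line of equality in grey. The genes grl-21, ptr-8, grl-4 and grd-3 keep their place above 1, and 11 further genes, all within 1 of 0 over all 6 arrays, pass in the smaller fit.

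Other parts of the pathway were read from a list of 19 measured genes, none of them a member. It held no rise and 2 falls, beside backgrounds of 3.03% of all genes called higher and 0.646% called lower. che-14, the worm relative of Dispatched, which acts in apical secretion by epidermal and glial cells, fell by 0.66 (SE 0.12, limma adjusted p = 0.0395), with 7.50, 7.89 and 7.82 in the mutant and 8.36, 8.34 and 8.50 in wild type. hhat-2, related to the acyltransferase that lipid-modifies Hedgehog, fell by 0.55 (SE 0.10, limma adjusted p = 0.0339), with 8.21, 8.38 and 8.35 in the mutant and 8.73, 8.93 and 8.91 in wild type. In both genes the groups were fully apart. The list includes tra-1, the worm homolog of the Hedgehog effector Gli, which acts in sex determination. For tra-1 the arrays read 8.75, 8.85 and 8.60 in the mutant and 8.65, 8.59 and 8.46 in wild type, which overlapped (95% interval of the difference -0.08 to 0.41). The calls of che-14 and hhat-2 were both lost when mutant replicate 2 or 3, or wild type replicate 2 or 3, was left out.

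Because many members act in moulting and in apical matrix, 20 genes of those processes were listed too, and none passed with limma. Of these 17 had negative and 3 positive differences, where 39.2% of all genes had positive ones. An unadjusted p under 0.05 was reached by 5, beside the background of 19.7%, and the median was -0.19, against -0.05 for all genes. The largest was that of fbn-1, a matrix protein gene, at 9.62, 9.38 and 9.58 in the mutant and 10.55, 10.33 and 9.90 in wild type (difference -0.73, SE 0.17, limma adjusted p = 0.0715). mlt-9, a gene needed for moulting, had the next largest, at -0.32 (SE 0.18, limma adjusted p = 0.395).

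In the annotation of the deposited table, a moulting phenotype linked many of the members. The term for the moulting cycle of the collagen cuticle was attached to 36 of the 80 genes (45.0%), against 285 of 17328 genes (1.64%). It covered 17 ptr, 9 grd and 6 wrt genes, both ptc genes, hog-1 and qua-1, and no grl gene. Of the 4 genes that rose, grd-3 and ptr-8 carried it. Over all genes with the term, 10 (3.51%) were higher and 1 lower, near the backgrounds given above.

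Whole embryos hold many cell types, and in such bulk samples fewer cells of a type and less RNA per cell cannot be told apart. Levels of cell type markers in the same fit are given beside the 4 rises, and their part in those rises was not tested. Over all genes in this fit, 3.03% were called higher and 0.646% lower. Epidermal markers held no rise and 2 falls among 12 genes, che-14 and the GATA factor gene elt-3, with summed intensities of 37041 to 40506 in the mutant and 39040 to 41239 in wild type. The 4 seam markers (3778 to 4156 in the mutant, 3946 to 4082 in wild type) and the 7 glial markers, ptr-10 among them (1415 to 1729 in the mutant, 1398 to 1605 in wild type) held no call. Among 10 neuronal genes, the peptide-processing genes egl-3, egl-21 and sbt-1 rose and the tubulin gene tbb-4 fell, and the sum was 10710 to 14102 in the mutant and 8868 to 9739 in wild type. Among 6 pharyngeal genes pqn-71 rose, and the sum was 3685 to 6011 in the mutant and 3079 to 3663 in wild type. Differences of these 6 genes ran from -0.04 to 2.02, with a median of 0.96 and 5 of them positive. The 10 maternal and oocyte transcripts summed to 8523 to 9932 in the mutant and 9853 to 12819 in wild type, with no call. All 10 had negative differences, with a median of -0.22, where 39.2% of all genes had positive ones and the median was -0.05. Body wall muscle (5 genes) and intestine (6 genes) held no call either, while in the germline list (6 genes) pgl-3 fell. Their sums were 9032 to 12852, 6998 to 9943 and 3022 to 4584 in the mutant. In wild type they were 8885 to 11004, 6017 to 7892 and 3236 to 3947. In a list of 9 yolk and later cuticle genes, of which vit-2, vit-5 and bli-1 lay at control level, vit-1 and rol-6 rose and the sum was 653 to 807 in the mutant and 503 to 544 in wild type.

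By position, 31 of the 80 members lie on chromosome V (38.8%), where 24.8% of all genes lie, 18 of them grl genes. Of the 4 genes that rose, grl-21, grl-4 and grd-3 lie on chromosome IV, which holds 11 members, and ptr-8 lies on chromosome II. On chromosome IV 2.97% of all genes were higher. Of the 7 measured protein-coding genes next to the 4 genes in the gene table's order, 1 passed. That gene, F44F4.3 beside ptr-8, had 5.76, 5.77 and 5.61 in the mutant and 4.83, 4.94 and 5.11 in wild type (difference 0.75, SE 0.10, limma adjusted p = 0.0152), with a wild type mean at control level. The member next to grd-3 is grd-10, which did not pass over all 6 arrays.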

How the data were processed

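The values are linear intensity per probe set and array, normalized by the authors, per the file headers. The submitters' processing notes name Affymetrix Expression Console, whose algorithm and version are not given in these sources. The deposited series matrix holds log2 values equal to the log2 of that table within 5.66e-06. A common scale between arrays hides any change in total RNA per embryo.

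Of 22625 probe sets, 77 controls were left out. Those with 1 gene (20728) gave 17328 genes, each by its brightest probe set, of which 16815 were matched to the gene table of WBcel235. Log2 values, with no pseudocount, entered limma 3.58.1 (lmFit, eBayes; R 4.3.3), two-sided, with adjustment over all genes and a threshold of 0.05. A simulation of this fit with known changes was used to check the steps. Members and lists were chosen with earlier results of these data known. Named are all members past the threshold, per family the brightest and the 3 largest others, members whose probe sets disagree, the ptc, hog and qua genes, and members chosen afterwards for a known role, a place beside another member or a value near the threshold (grl-2, grl-18, ptr-9, ptr-10, ptr-23, wrt-1, wrt-10). From other lists the rule takes genes past the threshold, or the 2 largest, and tra-1 was added for its role. Alternatives were the replicate block, each array left out in turn, both arrays numbered 1 left out, the series matrix, a pseudocount of 16, median centring, quantile normalization, dropping the dimmest 25% or 50% of genes, trended robust variances, array weights, the mean over probe sets, and adjustment over probe sets. The number of arrays limits the precision.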

Additional observations from a re-analysis of the deposited data

How the results depend on the processing

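The count of members higher in the mutant, 4, was 2 to 8 when 1 array was left out, 11 without both arrays numbered 1 and 9 with array weights, and that of members lower, 0, was 0 to 1, 4, 5 and, with trended robust variances, 2. Passing pathway genes, 2, numbered 0 to 3 with 1 array left out, 4 without both arrays numbered 1, 5 with array weights, 1 without the dimmest 50%, 1 with the pseudocount of 16 and 0 with trended robust variances. Passing moulting and matrix genes, 0, numbered 0 to 1, then 1 without both arrays numbered 1 and 2 with array weights. In median centring all genes had a median of -0.11 and the members -0.09. Small differences changed sign. With 1 array left out, grl-25 ran from -0.03 to 0.16, grl-7 from -0.24 to 0.03, ptc-3 from -0.25 to 0.03, ptr-11 from -0.21 to 0.08 and ptr-2 from -0.02 to 0.09. grl-25 gave -0.04 with quantile normalization, -0.02 with median centring and -0.08 with the mean of probe sets. ptr-2 gave -0.03 with median centring, -0.00 with array weights and -0.08 with the mean of probe sets. Without both arrays numbered 1, grl-7 gave 0.01, ptc-3 0.05 and ptr-11 0.15. The causes were not tested. With the replicate block 6 members were higher and 0 lower, grd-2 and ptr-12 being added. The share of all genes called in that fit is not given here, so this count cannot be set against a background. Arrays with the same number correlated at 0.21, 0.01 and 0.14 in their deviations from group means. Pairs with unlike numbers ran from -0.35 to 0.33. With so few arrays these values cannot decide whether arrays of the same number shared a preparation, and the labels do not say. Low signal limits what can be read for ptr-9 and grd-16, which passed as lower in 4 alternatives each with both means at the level of the yeast controls.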

Other observations

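The gene table of WBcel235 lists 88 genes of these families, and 8 of them are not members. ptr-25, a patched-related gene that the arrays list by its sequence name F43D9.1, had 11.12, 11.39 and 11.37 in the mutant and 11.48, 11.55 and 11.21 in wild type (difference -0.12, SE 0.13, limma adjusted p = 0.669 over all probe sets). A probe set shared by ptc-1 and ptc-2 (ptc-2 is a pseudogene in the gene table) had 7.95, 7.90 and 8.13 in the mutant and 8.27, 7.96 and 7.70 in wild type (difference 0.02, SE 0.16). The probe set for grl-30, which has no symbol in the deposited table, lay at control level, with 4.22, 4.20 and 4.26 in the mutant and 4.25, 4.15 and 4.32 in wild type.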
